A study of Mus musculus with 13 samples.

Results

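The 32 genes described here encode enzymes of purine and pyrimidine nucleotide synthesis, from the formation of the ribose donor to the last transfer of phosphate. They were listed by name from the pathway, with earlier results of these data known. All 32 were found among the 35854 genes to which transcripts were summed, and all 32 passed the filter on low counts in every comparison. RNA was sequenced from 13 libraries of sorted CD4 single-positive (CD4SP) mouse thymocytes of the M2 subset, the late stage of maturation that is CD69- and MHCI+, with 1 mouse per library. All mice were Lm54 Rag1-/-, so that their CD4 T cells carried the transgenic Lm54 receptor, which recognizes a listeriolysin O (LLO) peptide presented by I-Ab. CtslΔTEC mice lacked cathepsin L in thymic epithelial cells, where Foxn1-driven Cre is active, and not in the thymocytes that were sequenced, and the control mice are labelled Ctsl fl/fl and as WT. Cells of 4 control mice (numbers 1 to 4) and 5 CtslΔTEC mice (1 to 5) were unstimulated, and cells of 2 control mice (5 and 6) and 2 CtslΔTEC mice (6 and 7) had been cultured for 4 h with LLO:I-Ab bound to the plate at 1 µg/ml and soluble anti-CD28 at 250 ng/ml. The labels give neither age nor sex for single mice, and the study's methods describe young adult mice of both sexes in general.

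Purine rings are built step by step on phosphoribosyl pyrophosphate (PRPP) until inosine monophosphate (IMP) is formed, from which AMP and GMP arise, whereas the pyrimidine ring is made first and then joined to PRPP to give UMP and, later, CTP. Salvage enzymes return free bases and nucleosides to the nucleotide pool, kinases add the further phosphates, and ribonucleotide reductase with thymidylate synthase supplies the building blocks of DNA. Resting T cells rely largely on salvage, and T cells that leave rest through the antigen receptor and CD28 are known to raise de novo synthesis before they divide.

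The unstimulated libraries held between 25692380 and 39127833 estimated counts and the stimulated libraries between 8085463 and 27184520, and the stimulated libraries carry a file date of their own, so culture, stimulation and date cannot be told apart. Retained-intron transcripts took 5.13% to 5.77% of counts in unstimulated control and 5.59% to 6.59% in unstimulated CtslΔTEC libraries, and 6.0% and 7.63% against 7.94% and 8.55% with stimulation. The summed level of 5 CD4 T cell markers lay between 2630 and 3410 CPM (counts scaled to library size) in all 13 libraries. With stimulation 2 of these 5 were called lower in each genotype, and 1 was called higher in CtslΔTEC mice. Without stimulation 1 of the 5 was called lower in CtslΔTEC than control mice. Among them Zbtb7b measured 323.6 to 406.1 CPM in unstimulated control and 223.5 to 307.5 CPM in unstimulated CtslΔTEC mice. In the stimulated libraries it measured 52.9 to 87.1 CPM. A further 5 myeloid markers summed to 10.1 to 17.3 CPM without and 4.5 to 9.2 CPM with stimulation (2 of 5 called lower in control and 3 of 5 in CtslΔTEC mice). For B cells 5 markers summed to at most 1.54 CPM (2 and 1 of the 2 tested called lower). The 5 erythroid markers summed to 42.5 to 171 CPM without and 2.71 to 18.6 CPM with stimulation, and 4 of 4 tested were called lower with stimulation in both genotypes. The 5 thymic epithelium markers summed to 2.53 to 5.16 CPM without and 10.9 to 15.1 CPM with stimulation. Of these Foxn1, Krt5 and Krt8 were under 1 CPM throughout, and of the 2 tested Epcam was called higher with stimulation in both genotypes and Psmb11 in CtslΔTEC mice. Epcam was also called higher in unstimulated CtslΔTEC than control mice. Of 9 markers of the double-positive (DP) stage 6 were called lower with stimulation in control and 8 in CtslΔTEC mice, and of 5 markers of mature thymocytes 5 in each. The part of these markers in the results was not tested. Ctsl itself measured 6.31 to 8.85 CPM in the unstimulated control libraries and 11.4 to 17.9 CPM in those of CtslΔTEC mice, which does not check the deletion, since the thymocytes keep the gene. Each test compares libraries of different mice, so its p-value measures the spread between mice. A gene was called where the adjusted p of edgeR's quasi-likelihood test was under 0.1, and differences are given on the log2 scale. In these bulk samples fewer cells of a type and less RNA per cell cannot be told apart.

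Stimulation raised the transcripts of most of these enzymes in both genotypes. In control mice 21 of the 32 genes were called higher after stimulation, where 32.9% of all 14236 genes tested were, and 4 were called lower, where 34.8% of all genes were. In CtslΔTEC mice 21 were called higher, against 33% of all genes, and 6 lower, against 38.2%. The 21 genes called higher were the same in both genotypes, and the 4 called lower in control mice were among the 6 called lower in CtslΔTEC mice. The median log2 difference of the 32 genes was 0.93 in control mice and 0.71 in CtslΔTEC mice, while that of all genes was 0.01 and −0.06. The 5 genes called in neither genotype were Impdh1, Rrm1, Rrm2, Tk1 and Uck1.

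**Figure D1:**
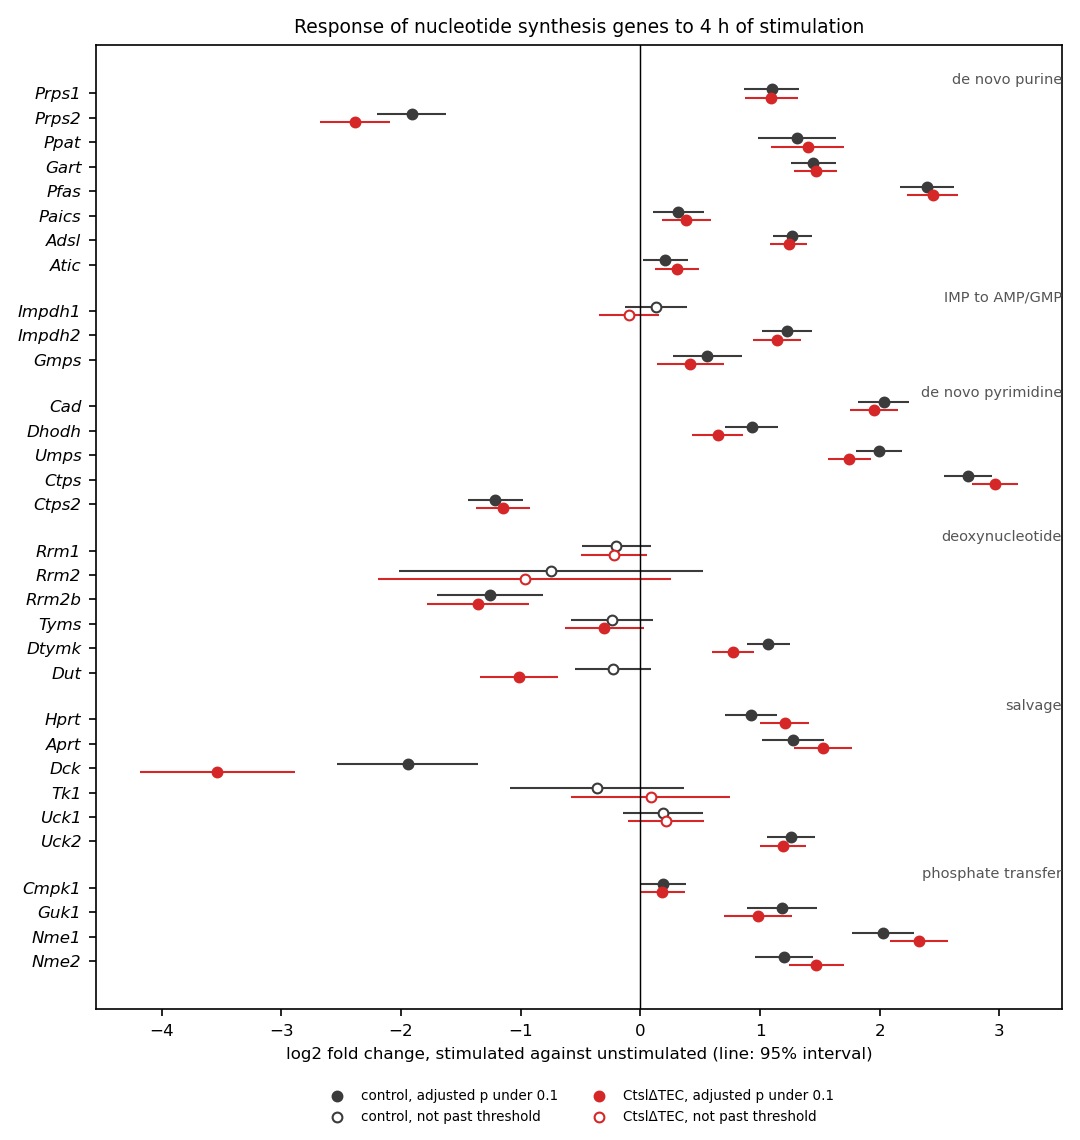
Log2 difference between stimulated and unstimulated libraries (x axis) for each of the 32 genes, grouped by role (y axis), in control and in CtslΔTEC mice, with 95% confidence intervals of the edgeR fit. Genes of de novo synthesis lie mostly to the right of 0, up to 2.97 for Ctps, and Dck lies farthest to the left, at −1.95 in control and −3.54 in CtslΔTEC mice.

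Among the 8 genes of the de novo purine pathway 7 were higher in each genotype and 1, Prps2, was lower. Pfas, which encodes the glutamine-dependent amidotransferase of the fourth step, stood at 41.7, 44.6, 44.5 and 34.5 CPM in the unstimulated control mice, at 40.4, 40.3, 37.8, 39.5 and 42.4 CPM in the unstimulated CtslΔTEC mice, at 200 and 234 CPM in the stimulated control mice and at 202 and 233 CPM in the stimulated CtslΔTEC mice. Every stimulated library lay far above every unstimulated one, and the difference was 2.40 ± 0.11 (SE) in control and 2.44 ± 0.10 in CtslΔTEC mice, or 5.26-fold and 5.43-fold (edgeR adjusted p = 8.02e-11 and 2.07e-11). The rise was smaller in the genes around it. Ppat, whose product commits PRPP to the purine pathway, rose by 1.31 and 1.40 on the log2 scale in control and CtslΔTEC mice. Gart, a trifunctional enzyme, rose by 1.45 and 1.47, and Adsl, the lyase that acts both on this route and on that to AMP, by 1.27 and 1.24. The bifunctional enzymes Paics and Atic, which carry the intermediate steps and the closure of the ring, rose by less. Paics rose by 0.32 and 0.38 (edgeR adjusted p = 0.0121 and 0.00241) and Atic by 0.21 and 0.31 (0.052 and 0.00524). Without control mouse 5 the Paics and Atic differences in control mice were 0.18 and 0.07 and no longer passed the test (edgeR adjusted p = 0.231 and 0.603). The Atic call in control mice was lost in 9 of 27 alternatives, among them library totals alone (0.12, edgeR adjusted p = 0.262), and its control libraries overlapped between states. Summed over the 8 genes, TPM (a level corrected for both library size and transcript length) rose from 407 ± 5.48 (SD, n = 4) to 736 ± 21 (n = 2) in control mice and from 417 ± 26.6 (n = 5) to 734 ± 46.2 (n = 2) in CtslΔTEC mice.

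Prps1 and Prps2 encode forms of PRPP synthetase, which makes the ribose donor of both pathways, and they moved in opposite directions. Prps1 stood at 42.8, 48.5, 40.4 and 43.6 CPM in the unstimulated control mice, at 43.4, 51.0, 45.5, 46.6 and 42.8 CPM in the unstimulated CtslΔTEC mice, at 105.8 and 82.5 CPM in the stimulated control mice and at 93.8 and 102 CPM in the stimulated CtslΔTEC mice. Prps2 stood at 115, 133, 105 and 104 CPM in the unstimulated control mice, at 113, 147, 139, 142 and 134 CPM in the unstimulated CtslΔTEC mice, at 33.0 and 28.2 CPM in the stimulated control mice and at 26.5 and 25.4 CPM in the stimulated CtslΔTEC mice. The stimulated and unstimulated libraries did not overlap for either gene. Prps1 rose by 1.1 ± 0.11 (SE) in control and 1.1 ± 0.10 in CtslΔTEC mice, and Prps2 was 3.76-fold and 5.21-fold lower (log2 difference −1.91 ± 0.14 and −2.38 ± 0.14, edgeR adjusted p = 1.12e-08 and 7.49e-10). On the TPM scale Prps1 made up 36.7% to 41.6% of the pair's sum in the unstimulated libraries and 80.8% to 85.3% in the stimulated ones.

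At the branch from IMP, Impdh2 and Gmps rose and Impdh1 did not pass the test. IMP dehydrogenase, which either Impdh gene encodes, sets the pace of GMP synthesis. Impdh2 stood at 96.3, 106.2, 92.6 and 101 CPM in the unstimulated control mice, at 88.3, 93.0, 90.9, 90.02 and 92.9 CPM in the unstimulated CtslΔTEC mice, at 260 and 203 CPM in the stimulated control mice and at 185 and 216 CPM in the stimulated CtslΔTEC mice, a rise of 1.23 ± 0.10 (SE) in control and 1.14 ± 0.09 in CtslΔTEC mice (edgeR adjusted p = 3.99e-08 and 3.89e-08). Impdh1 stood at 191, 184, 221 and 227 CPM in the unstimulated control mice, at 256, 208, 239, 231 and 226 CPM in the unstimulated CtslΔTEC mice, at 225 and 226 CPM in the stimulated control mice and at 187 and 246 CPM in the stimulated CtslΔTEC mice, and its groups overlapped. Its difference was 0.13 in control mice (95% confidence interval −0.12 to 0.39) and −0.10 in CtslΔTEC mice (−0.34 to 0.15). Gmps, GMP synthetase, rose by 0.56 and 0.42.

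The gene total of Impdh1 hid a change of start. Its transcripts begin at a pair of first exons 4067 bases apart on the minus strand of chromosome 6, and the deposited transcript counts divide between them. The transcripts from the upstream start held 20.9, 26.9, 25.3 and 23.2% of the gene's counts in the unstimulated control mice, 33.8, 31.5, 30.2, 27.7 and 28.0% in the unstimulated CtslΔTEC mice, 5.01 and 1.86% in the stimulated control mice and 2.31 and 2.33% in the stimulated CtslΔTEC mice. Every stimulated library was below every unstimulated one, by 24.6 percentage points on average. The upstream start measured 40.1 to 86.6 CPM (median 63.4) without and 4.21 to 11.3 CPM (median 5.04) with stimulation, while the downstream start measured 130 to 170 CPM without and 173 to 226 CPM with stimulation. Without stimulation the upstream share was also higher in CtslΔTEC mice, at 30.2 ± 2.53% (SD, n = 5) against 24.1 ± 2.61% (n = 4), and the groups did not overlap. Impdh1 was not alone in such a change. The most upstream start of Ctps2 held 52.1% to 59.6% of its counts without and 29.7% to 49.4% with stimulation. For Guk1 and Nme2 the share of the most upstream start overlapped between states. The shares are given as a description with no test, since they were chosen after the values were seen, and they rest on how kallisto divides reads among transcripts that share most exons.

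**Figure D2:**
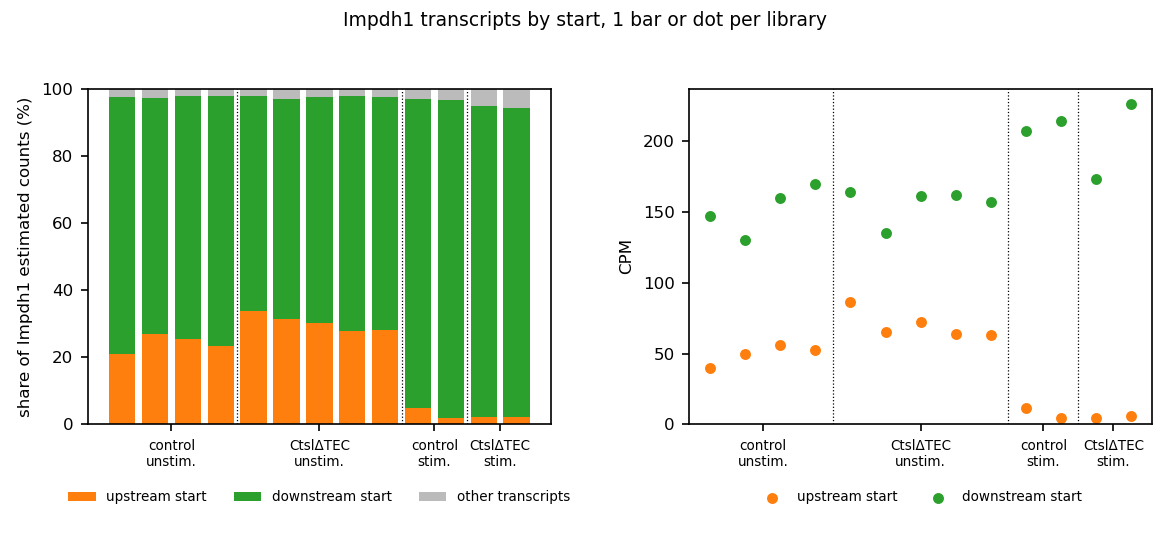
Share of Impdh1 estimated counts (left, %) and level in CPM (right) of the transcripts from the upstream and downstream starts, 1 bar or dot per library, in the 4 groups. The upstream share is 20.9% to 33.8% in the 9 unstimulated libraries and 1.86% to 5.01% in the 4 stimulated ones.

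The promoter windows of both Impdh1 starts are shown because the starts responded differently. Each runs from 250 bases before to 50 bases after the RefSeq start (GRCm38.p6), written 5′ to 3′ along the gene's strand. The upstream window is chr6:29216315-29216614 (minus strand) and the downstream window chr6:29212248-29212547 (minus strand).
Impdh1 upstream: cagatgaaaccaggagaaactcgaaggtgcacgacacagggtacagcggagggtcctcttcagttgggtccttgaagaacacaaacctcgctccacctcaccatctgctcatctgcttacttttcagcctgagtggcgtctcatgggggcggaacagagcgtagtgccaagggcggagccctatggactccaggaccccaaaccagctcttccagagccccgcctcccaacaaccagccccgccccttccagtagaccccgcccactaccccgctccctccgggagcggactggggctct
Impdh1 downstream: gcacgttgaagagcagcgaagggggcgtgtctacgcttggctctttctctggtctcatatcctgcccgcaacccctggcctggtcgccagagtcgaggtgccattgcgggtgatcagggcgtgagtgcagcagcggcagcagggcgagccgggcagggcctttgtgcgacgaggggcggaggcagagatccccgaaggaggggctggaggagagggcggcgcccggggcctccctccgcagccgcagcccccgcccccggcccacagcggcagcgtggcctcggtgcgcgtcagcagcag
G and C made up 61.3% of the upstream and 71.3% of the downstream window. Neither window holds any of the 5 motifs searched on both strands, which were CACGTG (an E-box that MYC and related factors can bind), TTTCCCGC and TTTGGCGC (E2F motifs), TGATGCAA (an ATF4 motif) and CCAAT, so neither has capitals.

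In the de novo pyrimidine pathway 4 of 5 genes were higher in each genotype and 1, Ctps2, was lower. Cad, the trifunctional enzyme of its first 3 steps, stood at 72.5, 85.5, 83.8 and 72.1 CPM in the unstimulated control mice, at 72.2, 60.4, 65.7, 62.7 and 62.1 CPM in the unstimulated CtslΔTEC mice, at 330 and 312 CPM in the stimulated control mice and at 231 and 268 CPM in the stimulated CtslΔTEC mice. Stimulated and unstimulated libraries were far apart, with a difference of 2.03 ± 0.10 (SE) in control and 1.95 ± 0.09 in CtslΔTEC mice, or 4.09-fold and 3.87-fold (edgeR adjusted p = 2.2e-10 and 1.12e-10). Umps, which joins orotate to PRPP and yields UMP, stood at 28.9, 31.9, 32.8 and 31.1 CPM in the unstimulated control mice, at 29.5, 29.2, 31.5, 30.9 and 27.5 CPM in the unstimulated CtslΔTEC mice, at 136 and 113 CPM in the stimulated control mice and at 99.2 and 100 CPM in the stimulated CtslΔTEC mice. Its rise was 1.99 ± 0.09 and 1.75 ± 0.09, with no overlap. Dhodh, the mitochondrial enzyme between them, rose by 0.93 and 0.65.

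CTP synthetase is encoded by Ctps and Ctps2, and here too the paralogs changed in opposite directions. Ctps stood at 31.1, 32.9, 28.3 and 28.8 CPM in the unstimulated control mice, at 25.04, 30.6, 27.1, 28.1 and 27.7 CPM in the unstimulated CtslΔTEC mice, at 205 and 200 CPM in the stimulated control mice and at 198 and 235 CPM in the stimulated CtslΔTEC mice. Ctps2 stood at 104, 101, 91.2 and 93.7 CPM in the unstimulated control mice, at 79.5, 88.2, 88.3, 100 and 86.1 CPM in the unstimulated CtslΔTEC mice, at 41.6 and 42.6 CPM in the stimulated control mice and at 43.4 and 36.7 CPM in the stimulated CtslΔTEC mice. Neither gene's stimulated libraries overlapped its unstimulated ones. Ctps was 6.68-fold and 7.81-fold higher (2.74 ± 0.10 and 2.97 ± 0.09, edgeR adjusted p = 8.77e-12 and 1.19e-12), the largest rise among the 32 genes in each genotype, and Ctps2 was 2.32-fold and 2.21-fold lower (−1.21 ± 0.11 and −1.15 ± 0.11). Per length, Ctps supplied 13.1% to 15.9% of the pair's TPM without stimulation and 67.5% to 73.8% with it. Such shares were chosen after the responses were known and are a description. Impdh2 supplied 34% to 42.8% of its pair with Impdh1 without and 56.1% to 63.8% with stimulation, and Uck2 34.4% to 46.6% and 61.7% to 67.6% of its pair with Uck1, whereas that of Rrm2 with Rrm2b overlapped, at 7.06% to 30.6% and 17.9% to 25%.

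**Figure D3:**
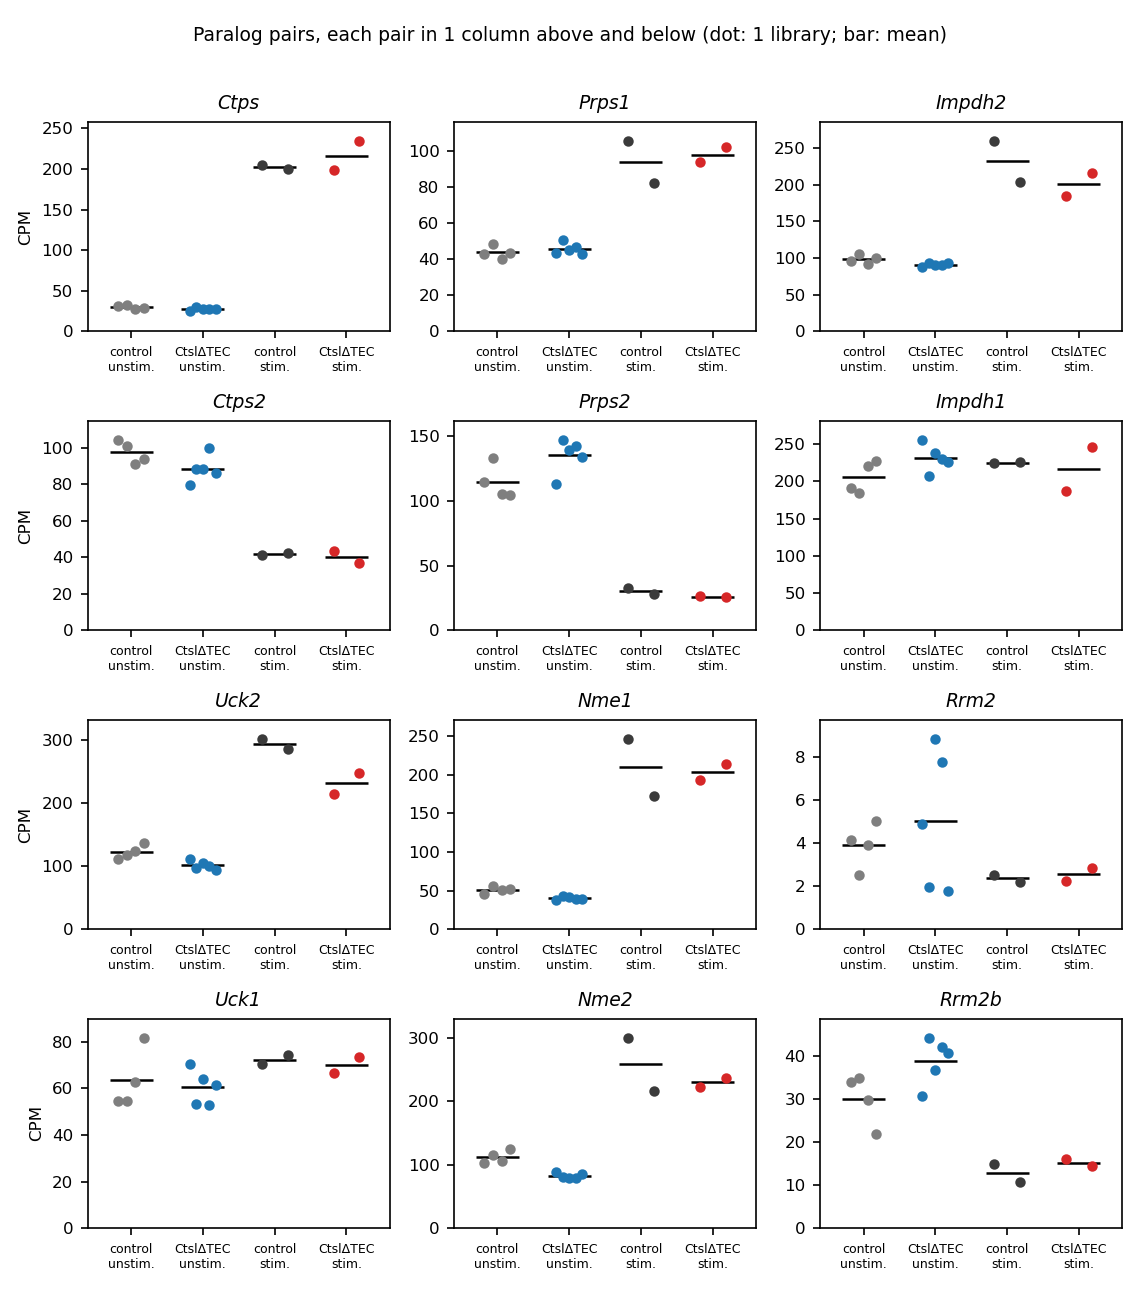
CPM (y axes, from 0) of paralog pairs in the 4 groups, with each pair in 1 column, a dot for each library and a bar for the group mean. Ctps and Prps1 rise from unstimulated to stimulated libraries while Ctps2 and Prps2 fall, and Impdh1 stays between 184 and 256 CPM.

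The promoters of Ctps, Nme1 and Cad are shown because these genes rose in both genotypes by the largest amounts for which a RefSeq window was at hand, and those of Paics and Ppat because these purine enzymes lie head to head, with starts 276 bases apart, and rose by different amounts. Their annotated spans overlap by 272 bases on opposite strands, where reads cannot be told apart without strand information, and Paics counts reached 226% of those of Ppat. Capitals mark the motifs named above. The windows are Ctps chr4:120570227-120570526 (minus strand), Nme1 chr11:93968223-93968522 (minus strand), Cad chr5:31054530-31054829 (plus strand), Paics chr5:76951052-76951351 (plus strand) and Ppat chr5:76951529-76951828 (minus strand), all in GRCm38.p6.
Ctps: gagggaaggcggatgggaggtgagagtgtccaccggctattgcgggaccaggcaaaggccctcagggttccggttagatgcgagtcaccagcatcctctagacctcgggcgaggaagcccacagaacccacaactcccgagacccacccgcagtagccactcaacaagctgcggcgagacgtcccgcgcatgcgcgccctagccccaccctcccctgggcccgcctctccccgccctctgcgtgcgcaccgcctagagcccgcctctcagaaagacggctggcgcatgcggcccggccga
Nme1: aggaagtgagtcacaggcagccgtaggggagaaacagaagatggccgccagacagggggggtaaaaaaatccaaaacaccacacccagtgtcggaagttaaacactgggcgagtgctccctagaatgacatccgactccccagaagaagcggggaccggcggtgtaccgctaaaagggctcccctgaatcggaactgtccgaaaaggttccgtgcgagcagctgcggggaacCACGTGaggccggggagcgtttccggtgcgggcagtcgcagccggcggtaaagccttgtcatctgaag
Cad: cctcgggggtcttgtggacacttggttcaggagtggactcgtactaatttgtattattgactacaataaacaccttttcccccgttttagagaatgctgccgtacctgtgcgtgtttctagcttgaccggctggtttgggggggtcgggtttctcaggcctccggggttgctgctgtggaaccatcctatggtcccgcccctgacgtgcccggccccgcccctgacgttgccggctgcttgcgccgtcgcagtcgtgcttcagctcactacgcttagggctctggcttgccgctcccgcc
Paics: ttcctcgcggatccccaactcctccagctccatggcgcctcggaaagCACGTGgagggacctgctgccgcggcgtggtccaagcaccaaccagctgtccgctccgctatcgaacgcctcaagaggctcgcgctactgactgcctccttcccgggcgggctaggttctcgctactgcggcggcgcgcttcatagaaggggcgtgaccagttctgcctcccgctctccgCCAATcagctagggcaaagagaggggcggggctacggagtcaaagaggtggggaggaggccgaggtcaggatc
Ppat: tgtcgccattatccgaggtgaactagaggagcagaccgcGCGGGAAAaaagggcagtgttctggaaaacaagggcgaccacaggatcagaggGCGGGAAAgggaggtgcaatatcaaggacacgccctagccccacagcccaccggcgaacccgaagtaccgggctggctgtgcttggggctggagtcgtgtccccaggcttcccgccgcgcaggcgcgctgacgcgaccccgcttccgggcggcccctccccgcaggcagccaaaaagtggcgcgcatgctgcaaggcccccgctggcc
Counted from the start, CACGTG begins at −18 in Nme1 and at −203 in Paics, which also has CCAAT at −23, and Ppat has GCGGGAAA, the reverse complement of TTTCCCGC, at −211 and −158. Of the 29 genes with a window, 6 held CACGTG (Paics, Atic, Impdh2, Tyms, Dtymk and Nme1), or 20.7%, against 8.09% of all 27025 genes with a window. TTTCCCGC was found in 2 (Prps2 and Ppat), or 6.9% against 1.24%, and CCAAT in 11, or 37.9% against 41.1%. TTTGGCGC and TGATGCAA were in none of the 29 windows and in those of 0.585% and 1.03% of all genes.

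All 4 genes of the phosphate transfer group were higher in both genotypes, Cmpk1 (UMP/CMP kinase) by only 0.19 and 0.18. The Cmpk1 call was lost in 13 of 27 alternatives in control and 14 of 27 in CtslΔTEC mice, among them library totals alone (0.10 and 0.04, edgeR adjusted p = 0.369 and 0.722). Nme1 and Nme2 encode nucleoside diphosphate kinases, which make triphosphates. Nme1 stood at 45.1, 56.1, 51.3 and 52.0 CPM in the unstimulated control mice, at 38.1, 42.9, 42.3, 39.8 and 39.3 CPM in the unstimulated CtslΔTEC mice, at 246 and 172 CPM in the stimulated control mice and at 193 and 214 CPM in the stimulated CtslΔTEC mice. Nme2 stood at 102, 116, 107 and 124 CPM in the unstimulated control mice, at 89.3, 81.5, 78.8, 79.5 and 86.0 CPM in the unstimulated CtslΔTEC mice, at 301 and 217 CPM in the stimulated control mice and at 223 and 237 CPM in the stimulated CtslΔTEC mice. Stimulated libraries were all above unstimulated ones for both genes. Nme1 rose 4.09-fold and 5.03-fold (2.03 ± 0.12 and 2.33 ± 0.11) and Nme2 2.30-fold and 2.77-fold (1.2 ± 0.11 and 1.47 ± 0.11). Guk1, guanylate kinase, rose by 1.18 and 0.99. Both Nme genes lie within the read-through gene Gm20390 on the same strand, whose counts reached 102% of those of Nme1 and rose with stimulation as well (by 1.93 and 2.49), so how reads were divided among the 3 genes is uncertain. Per length, Nme2 had the highest mean of the 32 genes in 3 of the 4 groups, at 212 ± 13.1 TPM (SD, n = 4) in unstimulated control, 458 ± 81.0 TPM (n = 2) in stimulated control and 403 ± 8.51 TPM (n = 2) in stimulated CtslΔTEC mice. In unstimulated CtslΔTEC mice Impdh1, at 162 ± 15.5 TPM (n = 5), and Nme2, at 159 ± 6.01 TPM, did not differ beyond their spread.

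Salvage genes divided. Hprt and Aprt, which return purine bases to nucleotides, rose by 0.93 and 1.28 in control and by 1.21 and 1.53 in CtslΔTEC mice. Uck2, a uridine-cytidine kinase, stood at 112, 119, 124 and 137 CPM in the unstimulated control mice, at 111, 97.5, 105, 101 and 94.7 CPM in the unstimulated CtslΔTEC mice, at 303 and 286 CPM in the stimulated control mice and at 216 and 248 CPM in the stimulated CtslΔTEC mice, and it rose by 1.26 ± 0.09 (SE) and 1.19 ± 0.09. Its paralog Uck1 stood at 54.8, 54.5, 62.8 and 81.8 CPM in the unstimulated control mice, at 70.6, 53.5, 64.0, 53.1 and 61.4 CPM in the unstimulated CtslΔTEC mice, at 70.4 and 74.3 CPM in the stimulated control mice and at 66.8 and 73.4 CPM in the stimulated CtslΔTEC mice. The states overlapped in each genotype, although stimulated CtslΔTEC mouse 7, at 73.4 CPM, was above every unstimulated CtslΔTEC mouse. The differences were 0.19 ± 0.15 and 0.21 ± 0.15 (edgeR adjusted p = 0.303 and 0.223). Tk1, the thymidine kinase of dividing cells, was at 0.79 to 2.12 CPM in every library and was not called. On the opposite strand its annotated span overlaps Gm20708 by 10567 bases and Afmid by 169 bases, with counts of up to 167% and 2650% of those of Tk1, and without strand information reads there cannot be told apart.

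Dck, deoxycytidine kinase, which salvages several deoxynucleosides, fell more than any other of the 32 genes in CtslΔTEC mice. It stood at 83.0, 68.2, 66.8 and 59.0 CPM in the unstimulated control mice, at 68.5, 87.4, 91.6, 94.0 and 77.4 CPM in the unstimulated CtslΔTEC mice, at 24.2 and 13.1 CPM in the stimulated control mice and at 4.24 and 9.8 CPM in the stimulated CtslΔTEC mice. The 2 control libraries after stimulation were above both CtslΔTEC libraries, and all 4 were far below the unstimulated ones. The difference was −1.95 ± 0.28 (SE) in control mice and −3.54 ± 0.30 in CtslΔTEC mice, or 3.85-fold and 11.6-fold lower (edgeR adjusted p = 1.88e-05 and 6.79e-08).

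Of the 6 genes that make deoxynucleotides 1 was higher and 1 lower in control mice, and 1 was higher and 3 lower in CtslΔTEC mice. Dtymk, thymidylate kinase, was the gene that rose, by 1.07 and 0.77. It also held the most TPM of the 6, and their summed TPM was 171 ± 5.33 (SD, n = 4) without and 250 ± 21.2 (n = 2) with stimulation in control mice, with no overlap, and 195 ± 15.7 (n = 5) and 214 ± 2.56 (n = 2) in CtslΔTEC mice, with overlap. Rrm2, the small subunit of ribonucleotide reductase that is made in S phase, stood at 4.15, 2.52, 3.94 and 5.03 CPM in the unstimulated control mice, at 4.88, 1.98, 8.86, 7.77 and 1.8 CPM in the unstimulated CtslΔTEC mice, at 2.52 and 2.21 CPM in the stimulated control mice and at 2.26 and 2.85 CPM in the stimulated CtslΔTEC mice. In control mice both stimulated libraries lay below the lowest unstimulated one, the higher of them only just, and in CtslΔTEC mice the groups overlapped, and the differences of −0.75 (95% confidence interval −2.02 to 0.52) and −0.97 (−2.19 to 0.25) did not pass the test. Among unstimulated CtslΔTEC mice Rrm2 was highest in mice 3 and 4, as were the cycling genes Mki67 (16.1 and 15.8 CPM against 1.75 to 8.78 CPM in the others) and Top2a (23.2 and 19.6 against 3.99 to 12.2 CPM). Genes of the earlier DP stage differed in their order, since Rag1, which these mice carry in disrupted form, was highest in mice 3 and 4 and Cd8a in mice 1 and 2. Rrm2b, the small subunit that resting cells use, stood at 33.8, 34.9, 29.6 and 21.8 CPM in the unstimulated control mice, at 30.7, 44.2, 36.8, 42.0 and 40.7 CPM in the unstimulated CtslΔTEC mice, at 15.0 and 10.8 CPM in the stimulated control mice and at 16.1 and 14.4 CPM in the stimulated CtslΔTEC mice. It was 2.38-fold and 2.56-fold lower after stimulation (−1.25 ± 0.21 and −1.36 ± 0.20, edgeR adjusted p = 8.6e-05 and 2.31e-05), without overlap. Rrm1, the large subunit, measured −0.20 and −0.22 and was not called. Tyms, thymidylate synthase, was at 5.78 to 9.05 CPM throughout and was called lower in CtslΔTEC mice at an adjusted p of 0.0994 (edgeR, log2 difference −0.30), a call lost in 17 of 27 alternatives, with −0.09 (adjusted p = 0.715) when the libraries were thinned to the smallest.

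Dut, the dUTPase that keeps uracil out of DNA, stood at 23.5, 21.1, 24.6 and 27.3 CPM in the unstimulated control mice, at 26.8, 21.7, 26.9, 26.2 and 22.5 CPM in the unstimulated CtslΔTEC mice, at 24.5 and 17.5 CPM in the stimulated control mice and at 12.1 and 12.5 CPM in the stimulated CtslΔTEC mice. Only the CtslΔTEC libraries were separated, with both stimulated ones below every unstimulated one, whereas the stimulated control libraries fell on either side of the unstimulated range's lower end. The difference was −0.23 ± 0.15 (SE) in control mice (edgeR adjusted p = 0.204) and −1.01 ± 0.15 in CtslΔTEC mice (2.96e-05). Without control mouse 5 it was −0.48 in control mice and passed the test (edgeR adjusted p = 0.0251), and without mouse 6 it was 0.00.

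Whether the response itself differed between genotypes was tested with an interaction term. None of the 32 genes was called higher, against 1.13% of all genes, and 2 were called lower, against 4.9%. No gene had an unadjusted p under 0.05 in the higher direction by edgeR, and 1 did by DESeq2, which called none after adjustment. The 2 genes called were Dck, with a log2 difference of responses (CtslΔTEC minus control) of −1.59 ± 0.38 (SE, edgeR adjusted p = 0.0347), and Dut (−0.79 ± 0.21, adjusted p = 0.0533). The Dck call was lost in 2 of 26 alternatives, without CtslΔTEC mouse 6 (−1.15, edgeR adjusted p = 0.170) and without control mouse 5 (−1.14, 0.177). The Dut call was lost in 9 of 26, which were those mice (−0.77 and −0.55, edgeR adjusted p = 0.197 and 0.252), stimulated CtslΔTEC mouse 7 (−0.82), unstimulated CtslΔTEC mouse 3 (−0.69) or control mouse 1 (−0.77) left out, an adjusted p under 0.05, a length offset, thinning and limma on TPM. The libraries of CtslΔTEC mouse 6 and control mouse 5 are the shallower of their groups, at 11792192 and 8085463 counts, and Dck had 47 counts in the former and 183 in the latter, against 155 and 338 in the other library of each group. They are also the ones low in Y-linked transcripts, with a mean log2 CPM of −1.14 and −1.18. In the other library of each group it was 6.51 and 6.22. Leaving out either mouse thus changes the balance of sexes too, and the part of depth and sex was not tested. For Ctps, Pfas and Cad the interaction was 0.23 (95% confidence interval −0.07 to 0.52), 0.05 (−0.28 to 0.37) and −0.08 (−0.39 to 0.22), none past the test.

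**Figure D4:**
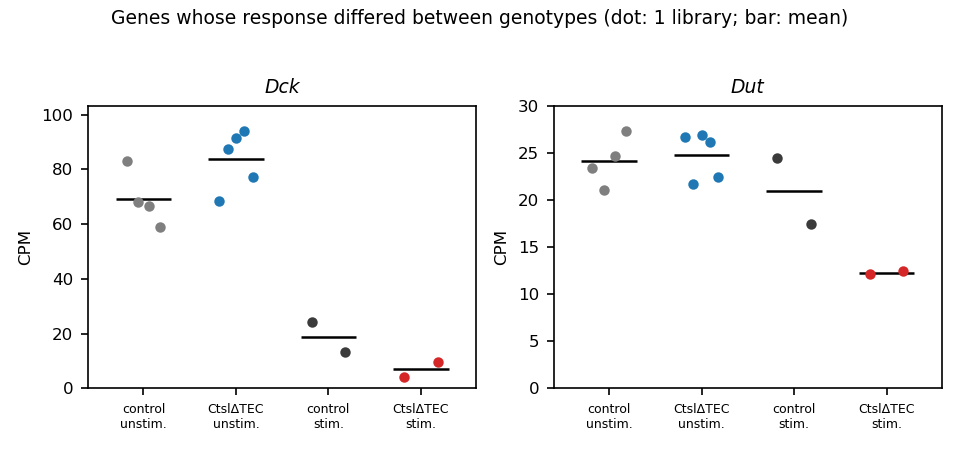
CPM (y axes, from 0) of Dck and Dut in the 4 groups, with a dot for each library and a bar for the group mean. Dck falls from 59.0 to 94.0 CPM in unstimulated libraries to 13.1 and 24.2 CPM in stimulated control and 4.24 and 9.80 CPM in stimulated CtslΔTEC libraries.

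In unstimulated cells a few of these genes were slightly lower in CtslΔTEC mice. None of the 32 was called higher, against 6.42% of 13149 genes tested, and 5 were called lower, against 8.36%, and their median difference was −0.07 against 0.01 for all genes. Of genes higher in CtslΔTEC mice, 4 had an unadjusted p under 0.05 by edgeR, and DESeq2 called 1 after adjustment. Nme2 differed most, at 102, 116, 107 and 124 CPM in control and 89.3, 81.5, 78.8, 79.5 and 86.0 CPM in CtslΔTEC mice (−0.43 ± 0.07 SE, or 1.35-fold lower, edgeR adjusted p = 0.00217). Nme1 was lower by a log2 difference of −0.34 ± 0.07 (adjusted p = 0.0132 by edgeR), Uck2 by −0.27 ± 0.07 (0.0354), Cad by −0.28 ± 0.08 (0.0401) and Atic by −0.24 ± 0.06 (0.0267). The CPM ranges of Nme1, Nme2, Uck2 and Atic did not overlap between genotypes, and those of Cad did by CtslΔTEC mouse 1, at 72.2 CPM. Among the 13149 genes 7.92% had every CtslΔTEC library below every control library, and 5.95% every one above. Over single genes the exact permutation test gave p = 0.0159, the smallest that 5 against 4 mice allow, for Nme1, Nme2, Uck2 and Atic, and 0.0476 for Cad. Of the other 3 genes under 0.05, Gart (0.0317) and Impdh2 (0.0476) were lower and Dtymk was higher in CtslΔTEC mice (exact permutation p = 0.0317, log2 difference 0.13). These p-values are unadjusted, and the same test put 12.1% of the 13149 genes under 0.05 as lower and 10.8% as higher, against 7 and 1 of the 32. The 6 deoxynucleotide genes all had positive differences, from 0.04 for Dut to 0.37 for Rrm2b, and none passed the test.

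Several measures moved with genotype in the unstimulated libraries, and their part in these differences was not tested. The summed level of 5 markers of mature thymocytes was 3030 to 3420 CPM in control and 2030 to 2390 CPM in CtslΔTEC mice, with 5 of 5 called lower. That of 9 DP-stage markers was 57.6 to 83.1 CPM against 231 to 311 CPM, with 7 of the 8 tested called higher, and the DP gene Ptcra was under 1 CPM throughout. Y-linked transcripts were high in all 5 CtslΔTEC but in 1 of 4 control mice, so the sex of the mice was unevenly divided. With the Y-linked level as a term none of the 32 genes was called in either direction (edgeR, 1 higher and 5 lower at an unadjusted p under 0.05). The differences were then −0.34 for Nme2 (edgeR adjusted p = 0.221), −0.34 for Nme1 (0.302), −0.36 for Cad (0.24), −0.27 for Atic (0.308) and −0.27 for Uck2 (0.421), and the calls among all genes fell from 1943 to 428.

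**Figure D5:**
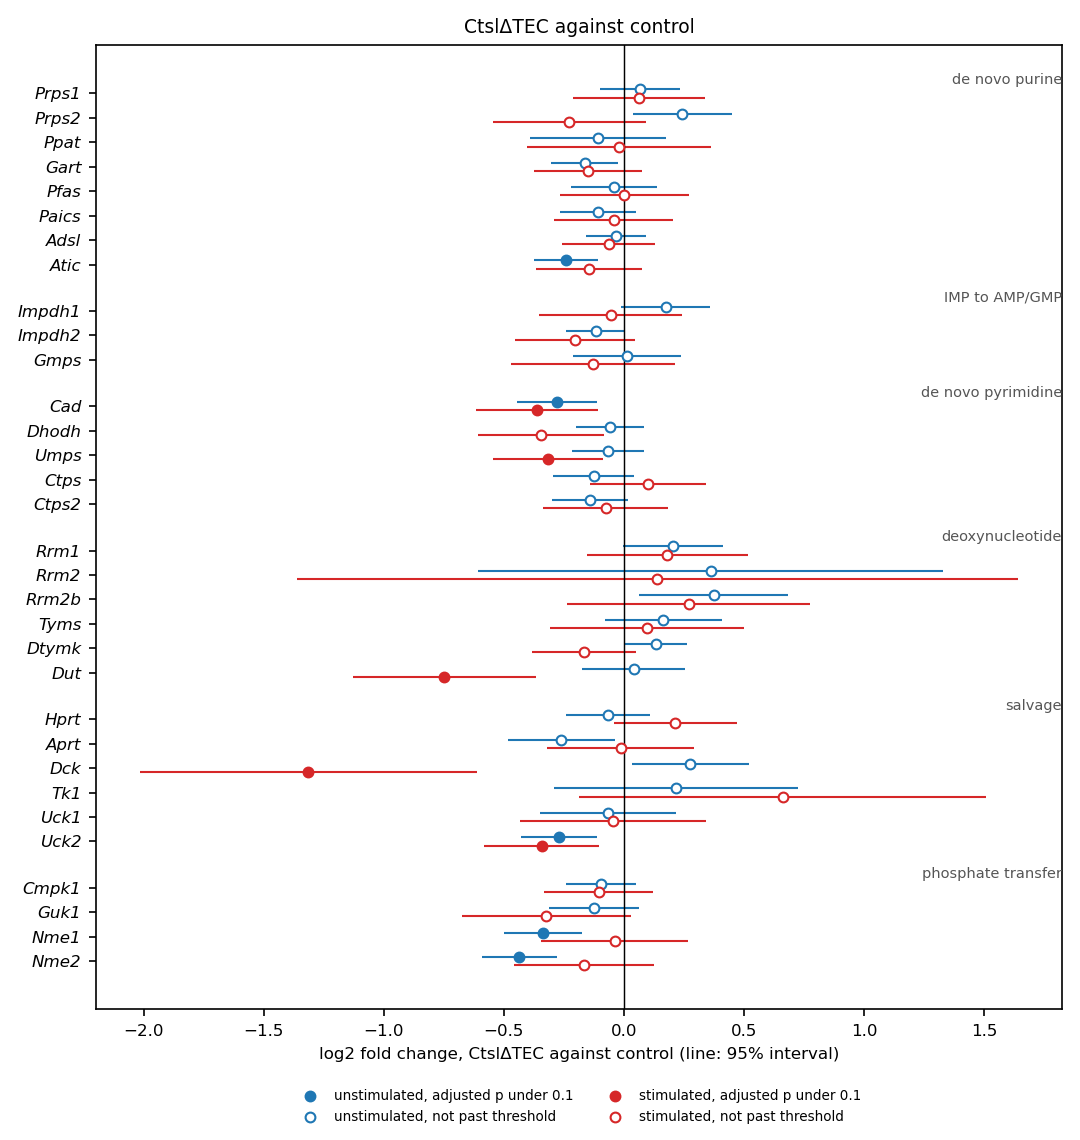
Log2 difference between CtslΔTEC and control mice (x axis) for each of the 32 genes, grouped by role (y axis), in unstimulated and in stimulated libraries, with 95% confidence intervals of the edgeR fit. Most values lie within 0.4 of 0, and Dck and Dut stand apart in the stimulated libraries at −1.31 and −0.75.

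After stimulation none of the 32 genes was called higher in CtslΔTEC mice, against 2.78% of all genes, and 5 were called lower, against 10.6%, with no unadjusted p under 0.05 in the higher direction by edgeR or DESeq2. Their median difference was −0.07, and that of all genes was −0.06. Dck was 2.49-fold lower (−1.31 ± 0.33 SE, edgeR adjusted p = 0.0212) and Dut 1.68-fold lower (−0.75 ± 0.18, 0.0163). Both CtslΔTEC libraries lay below both control libraries for these genes, as they did for 8 of the 32 genes and for 30.1% of all genes. The pyrimidine genes Cad (−0.36 ± 0.12, edgeR adjusted p = 0.0735) and Umps (−0.32 ± 0.11, 0.0853) and the kinase Uck2 (−0.34 ± 0.11, 0.0735) were lower by less. With 2 libraries a group, leaving out CtslΔTEC mouse 6 or control mouse 5 left none of the 32 called in either direction (edgeR, 3 and 4 lower at an unadjusted p under 0.05), and leaving out control mouse 6 left 8. The mature thymocyte markers summed to 388 to 636 CPM in control and 242 to 323 CPM in CtslΔTEC mice, and the DP markers to 29.3 to 33.6 and 76.6 to 82.7 CPM. Retained-intron transcripts also took a larger share of counts in both CtslΔTEC libraries (7.94% and 8.55%) than in both control libraries (6.0% and 7.63%), and the part of the markers and of this share was not tested.

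Other genes of the same metabolism were listed by pathway, and their counts of called responses to stimulation stand against the same shares of all genes, which are 32.9% higher and 34.8% lower in control and 33% and 38.2% in CtslΔTEC mice. Among 14 genes of the folate cycle, which donates carbon to purines and thymidylate, 10 were called higher and 3 lower in control mice and 9 and 4 in CtslΔTEC mice. Shmt1, a serine hydroxymethyltransferase, rose by 4.42 and 5.05, and Slc19a1, a folate carrier, by 3.16 and 2.99, both more than any of the 32 genes. Of 7 genes of the pentose phosphate pathway, which supplies ribose, 3 were higher and 1 lower in control mice and 4 and 3 in CtslΔTEC mice. In the stimulated libraries 5 of these 7 were called lower in CtslΔTEC than control mice, as were 4 of the 14 folate genes and 9 of the 36 further genes of nucleotide metabolism, against 10.6% of all genes, and 0, 0 and 1 were called higher, against 2.78%. The 5 included G6pdx, the entry enzyme of the pathway, at −0.73 ± 0.15 (SE, edgeR adjusted p = 0.00813). Of 36 further genes of nucleotide metabolism tested, 13 were higher and 14 lower in control mice and 11 and 18 in CtslΔTEC mice. Adenosine kinase, Adk, rose by 1.99 in each genotype and was lower in CtslΔTEC mice, with differences of −1.0 ± 0.10 without and −1.01 ± 0.14 with stimulation. Myc rose by 3.77 and 4.13, and its genotype difference after stimulation was 0.24 (edgeR adjusted p = 0.365). Of 18 replication and cycling genes 2 were higher and 7 lower in control mice and 4 and 6 in CtslΔTEC mice, with medians of −0.62 and −0.63.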

How the data were processed

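The authors quantified transcripts with kallisto (version 0.48 in the submitters' processing notes) against Ensembl mouse transcripts, and the deposited tables give estimated counts and TPM per transcript, with transcript lengths in bases as another column. Of 117497 transcripts 116343 were matched to genes of the GRCm38 annotation by their identifiers, and the other 1154 held at most 0.489% of a library's counts. Estimated counts were summed to genes and rounded, and TPM were summed. Whether the libraries keep strand is not given in the sources used here, which describe their preparation in different ways.

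Groups came from the labels. Genotype in unstimulated cells was tested in 9 libraries (13149 genes) and the other comparisons in 1 model of 4 groups in 13 libraries (14236 genes), with edgeR 4.0.16 (R 4.3.3; TMM factors, filterByExpr, quasi-likelihood test, Benjamini-Hochberg adjustment over all genes tested, adjusted p under 0.1). The standard error is the log2 difference divided by the square root of F. CPM are TMM-scaled. DESeq2 1.42.0 and limma 3.58.1 served as alternatives, as did other scalings, filters, terms and left-out libraries. Exact permutation tests used scipy 1.17.1. The scripts were tested on simulated data.

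The 32 genes and the other lists were chosen with earlier results of these data known. All 32 are named by role, those with a called interaction, the 4 with the largest called differences in each comparison and the paralog pairs are given in full, and of the other lists those with the smallest p were named. RefSeq promoter windows matched 29 of the 32 genes, and Pfas, Dhodh and Rrm2b had no entry. Protein sequences were not used here.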

Additional observations from a re-analysis of the deposited data

Results flagged for a closer look

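Among 64 sets of CPM values tested, the 32 genes in each of the unstimulated groups, 2 held a mouse far from the others by Dixon's criterion, which chance meets in about 1 set in 20. Ppat measured 41.9 CPM in CtslΔTEC mouse 1 and 57.7 to 65.5 CPM in the other 4 mice of that group. Gmps measured 70.8 CPM in control mouse 2 and 56.2 to 57.5 CPM in the other 3.

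The response to stimulation differed between genotypes, by the interaction term of the edgeR fit, for Dck (log2 difference of responses, CtslΔTEC minus control, −1.59) and for Dut (−0.79). The values in each library and those without single mice are given with the interaction above, and the cause was not tested.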

How the results depend on the processing

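The counts of genes called in the responses to stimulation stayed within 1.5 times, with 23 to 26 of the 32 genes called in control and 25 to 28 in CtslΔTEC mice under all alternatives run, against 25 and 27, although the calls of Cmpk1, Tyms and Atic were lost in many of them, as given above. Library totals alone moved the median of all genes from −0.06 to −0.21 in the CtslΔTEC response, and upper-quartile factors moved it to −0.12. With library totals the calls were 19 higher and 7 lower in control and 19 and 8 in CtslΔTEC mice.

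The genotype calls without stimulation, 5 as reported, were 8 with DESeq2 (1 of them higher in CtslΔTEC mice), 8 with library totals alone (3 higher), 9 with the file date as a term (3 higher), 8 within the second date (2 higher), 0 with the Y-linked level as a term and 4 to 10 without single mice, 10 of them (4 higher) without CtslΔTEC mouse 1. Calls of 2 genes as higher were also made with a length offset and with limma on TPM, and of 1 without control mouse 1 or 2. With a replicate block on mice 1 to 4 there were 2, and 1056 in place of 1943 among all genes. Besides the Y-linked term, this block and limma on TPM each lost the calls of Cad, Atic and Uck2. That of Cad was also lost with a length offset (edgeR adjusted p = 0.156) and without control mouse 2 (0.114) or 3 (0.116). That of Atic was also lost when thinned (edgeR adjusted p = 0.108). The calls of Nme1 and Nme2 were lost only with the Y-linked term. The deviations of mice that share a number correlated at −0.16, 0.35, −0.10 and −0.14 for mice 1 to 4. Only the mice numbered 2 share a file date, so these values cannot tell whether the numbers pair the mice. Mouse numbers are those of the sample titles, and the numbers in the deposited file names differ from them for 1 unstimulated and the 4 stimulated libraries, so the numbering itself is uncertain. The 8 genes under 0.05 in the exact test became 4 to 9 without single mice.

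The genotype calls after stimulation, 5 as reported, were 2 at an adjusted p under 0.05, with upper-quartile factors, with at least 10 counts in every library, with protein-coding transcripts only, with limma on TPM or in the 4 stimulated libraries alone, 3 with a transcript length offset, 1 when thinned to the smallest library and 0 to 8 without single mice. Among 27 alternatives the call of Umps was lost in 19, that of Uck2 in 12, that of Cad in 11, that of Dut in 3 and that of Dck in 2. The 2 interaction calls became 1 at an adjusted p under 0.05, with a length offset, when thinned or with limma on TPM, and 0 to 3 without single mice. No call changed direction. The cause of these changes was not tested, except that the 4 libraries alone and the left-out mice leave fewer samples, and thinning fewer counts. Tk1, Rrm2 and Tyms were under 10 CPM in every library, and the Dck calls were kept when libraries were thinned.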

Other observations

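The mix of Uck2 transcripts differed between states. Uck2-202, the main transcript in every library, held 94.7% to 97.9% of the gene's counts in the unstimulated and 86.0% to 90.8% in the stimulated libraries, and Uck2-201 made up most of the remainder. These shares are a description with no test, and like those of Impdh1 they rest on how kallisto divides reads among transcripts.

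Among the regulators listed with these enzymes, E2f1 and E2f2, transcription factors of the S phase programme, were lower in unstimulated CtslΔTEC mice by log2 differences of −0.87 ± 0.18 (SE) and −1.10 ± 0.22 (edgeR adjusted p = 0.00862 and 0.00689). The replication genes Prim1 and Mcm5 were higher there, by 0.66 ± 0.12 and 0.46 ± 0.09, and again after stimulation, by 0.73 ± 0.19 and 0.48 ± 0.13 (edgeR adjusted p = 0.0265 and 0.0299). Samhd1, which breaks down deoxynucleoside triphosphates, was lower in CtslΔTEC mice, with log2 differences of −1.37 ± 0.16 without and −1.66 ± 0.27 with stimulation. Ampd3, an AMP deaminase, fell with stimulation by 3.76 in control and 4.85 in CtslΔTEC mice on the log2 scale, more than any of the 32 genes.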
